A study of Mus musculus with 6 samples.

Results

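The sodium channel genes followed here in ageing mouse hearts were 3 genes for pore-forming alpha subunits (Scn4a, Scn7a and Scn10a) and 3 for beta subunits (Scn2b, Scn3b and Scn4b). They were chosen by name, and 6 of 44200 gene models in the count table matched, 1 row for each name. Other alpha and beta subunit genes are not analysed here. RNA of whole heart tissue was sequenced from male C57BL/6 mice of 2 ages, 2 months (young) and 22 months (old), with 3 hearts from separate animals per age. All animals were of the same strain and sex, were housed alike on normal chow, and received no treatment, so age was the only difference that the labels give. The comparison asks which of these transcripts differ in level between young and old hearts.

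Voltage-gated sodium channels open when the membrane depolarises and carry the fast inward sodium current that starts the cardiac action potential and drives its spread through the myocardium. The alpha subunit forms the pore. The beta subunits are small proteins with a single membrane span and an outer immunoglobulin-like fold, which adjust the gating and surface density of the pore and can act as adhesion molecules. Among the alpha subunits, the protein of Scn4a is the main channel of skeletal muscle, that of Scn10a is best known from sensory neurons, and that of Scn7a is an atypical member that acts as a sodium sensor instead of opening with voltage. The Scn4b protein has an inner tail that can block the open pore and thereby give rise to resurgent current.

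Libraries held between 13673856 and 15583364 counts. Levels are given as CPM, the counts of a gene relative to the size of its library, after scaling of the libraries by edgeR's trimmed mean of M values (TMM), with the SD over 3 hearts. On the first principal component, which held 55.3% of the variance, the library old 1 (17.2) lay nearer to the young libraries (−41.3 to −35.7) than old 2 and old 3 did (49.4 and 50.6). Defining cardiomyocyte transcripts were high at both ages, with Myh6, the adult cardiac myosin heavy chain, at 22616 ± 1821 CPM in young and 13464 ± 1616 CPM in old hearts. Genes were tested with edgeR's quasi-likelihood test and Benjamini-Hochberg adjustment over all 14413 genes tested, and a gene is said to rise or fall only at an adjusted p under 0.05. By this test 15.1% of all genes differed between the ages, with 8.72% higher and 6.36% lower in old hearts. These shares are the background for the counts of called genes in every list below. Among genes of 10 to under 100 CPM, the range of Scn4a, Scn7a and Scn4b, 15.9% differed and 8.62% were higher. Under 1 CPM, where Scn10a and Scn3b lie, 7.67% differed and 5.45% were higher.

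Scn4b rose in old hearts, and no other member passed the test. Of the 6 members, 5 passed the filter on low counts and were tested. Scn2b did not pass it and is described by its counts alone. One call among 5 tested members is near the background of 15.1% and says nothing about the members as a group. At an unadjusted p under 0.05, which 32.5% of all genes reached, Scn4b and Scn7a were the members found.

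Scn4b stood at 9.21, 13.9 and 12.1 CPM in young 1, 2 and 3, and at 22.9, 29.3 and 20.8 CPM in old 1, 2 and 3. Every old heart lay above every young heart, which held for 18.8% of all genes tested. The gap between the ages was wider than the spread among the young hearts but narrower than that among the old hearts. The mean rose from 11.7 ± 2.37 to 24.3 ± 4.43 CPM. The log2 fold change was 1.05 ± 0.20 (SE; edgeR adjusted p = 0.0098), a 2.07-fold rise with a 95% interval from 1.53-fold to 2.81-fold. These values rest on 527 reads in the young and 1067 reads in the old hearts. Without young 1, the young heart with the lowest value, the log2 fold change was 0.90 and the adjusted p of edgeR's test was 0.0527. The gene (ENSMUSG00000046480) lies on the plus strand of chromosome 9, 45138395 to 45154152 in GRCm38, with no other annotated gene overlapping it.

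**Figure D1:**
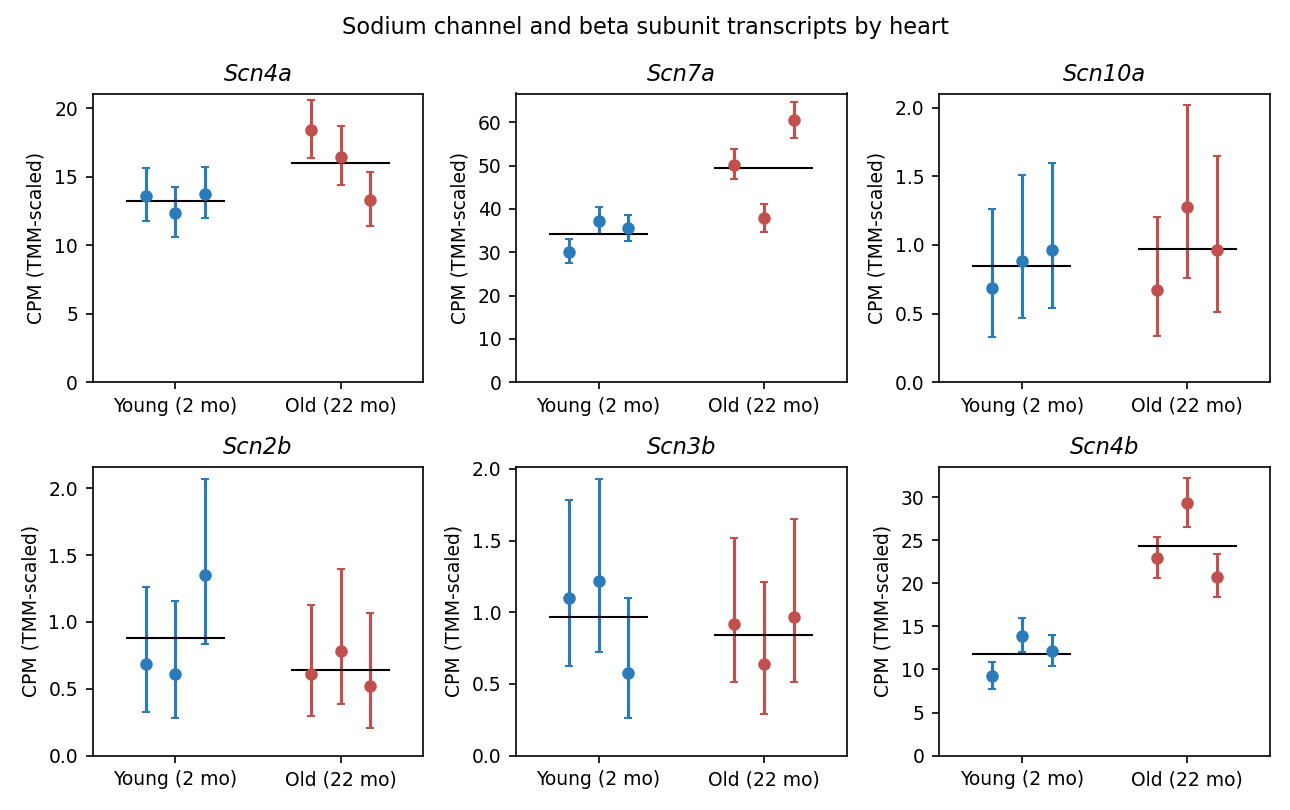
Level of each member in each heart, in TMM-scaled CPM on linear axes that start at 0 (scales differ between panels). Points are hearts 1 to 3 from left to right within an age, bars are exact 95% Poisson intervals that cover counting error only, and black lines are group means. The old hearts lie above the young hearts for Scn4b (20.8 to 29.3 against 9.21 to 13.9 CPM) and, by a narrow margin, for Scn7a, while the other 4 members overlap between the ages.

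Scn2b and Scn3b, the other beta subunit genes measured, were close to the limit of counting in every heart. Scn2b, whose protein is linked to the alpha subunit by a disulfide bond as that of Scn4b is, had 10, 9 and 21 reads in young 1, 2 and 3 and 10, 11 and 7 reads in old 1, 2 and 3. Its level was 0.883 ± 0.408 CPM in young and 0.637 ± 0.132 CPM in old hearts, with overlapping groups. Scn3b, whose protein binds the alpha subunit without such a bond, had 16, 18 and 9 reads in the young and 15, 9 and 13 reads in the old hearts. It had 0.967 ± 0.341 CPM in young and 0.841 ± 0.177 CPM in old hearts. Its log2 fold change was −0.19 ± 0.43 (edgeR adjusted p = 0.788), with a 95% interval from −1.15 to 0.77, which is 0.449-fold to 1.70-fold. So few reads and 3 hearts per age do not allow a change or its absence to be read from it. Scn2b (ENSMUSG00000070304, chromosome 9, 45117782 to 45130070) and Scn3b (ENSMUSG00000049281, chromosome 9, 40269217 to 40291618) each have another annotated gene on the opposite strand within an intron, a lincRNA in the case of Scn2b. Whether the counting used strand is not stated in the labels.

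The balance among the beta subunit transcripts was compared within each heart, where library scaling has no part. With 0.5 added to each count, Scn4b had 12.8, 21.6 and 8.77 reads for each read of Scn2b in young 1, 2 and 3, and 35.7, 36.0 and 37.4 in old 1, 2 and 3. The old hearts all lay above the young hearts, by a mean log2 difference of 1.43 (two-sided exact permutation p = 0.1, the lowest value 3 hearts against 3 can give, and 0.225 with Benjamini-Hochberg adjustment over 9 pairs). For Scn4b over Scn3b the read ratios were 8.15, 11.1 and 19.8 in young and 24.2, 43.5 and 20.8 in old hearts, again without overlap (mean log2 difference 1.20, exact permutation p = 0.1, adjusted 0.225). The ratio of Scn2b to Scn3b overlapped between the ages (log2 difference −0.23, exact permutation p = 0.9, adjusted 1). These 3 pairs were chosen after the counts were seen, and Scn2b and Scn3b have so few reads that counting error is a large part of each ratio. Their adjustment took in the 6 planned pairs given further below, which were adjusted among themselves, so the adjusted values of the 2 sets are not comparable.

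Scn2b and Scn4b are direct neighbours on chromosome 9. Both are read from the plus strand, and 8324 bases with no protein-coding gene separate the end of Scn2b from the start of Scn4b. Per kilobase of exon, Scn4b had 2.36 ± 0.48 CPM against 0.19 ± 0.088 CPM for Scn2b in young hearts, and 4.88 ± 0.89 against 0.137 ± 0.0284 in old hearts. No rise like that of Scn4b was seen in the few reads of Scn2b. The start regions of the neighbours differ in composition. In the 250 bases before the RefSeq start (GRCm38.p6), Scn4b (chr9:45138374-45138623) had 66% G and C and 23 CpG dinucleotides, and Scn2b (chr9:45117626-45117875) had 38.4% and 1. Over 32841 such windows of all genes the medians were 52.4% and 6. GENCODE M21 sets the start of Scn4b 229 bases and that of Scn2b 94 bases further upstream, so these windows lie partly within the transcripts of that annotation.

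The next protein-coding genes around this pair were taken by position, 2 upstream and 3 downstream, after earlier results were known. Of these 5, 3 could be tested, and all 3 were higher in old hearts, as were 8.72% of all genes tested. Such a count of 3 genes is too small to describe the region. They were Jaml (named Amica1 in the count table), an adhesion molecule of leukocytes, with a log2 fold change of 2.77 ± 0.44 (edgeR adjusted p = 0.00548), Il10ra, a chain of the interleukin-10 receptor, with 1.08 ± 0.19 (edgeR adjusted p = 0.00835), and Mpzl3, which went from 0.738 to 2.10 CPM (edgeR adjusted p = 0.0499). The call of Il10ra ended without young 3 (edgeR adjusted p = 0.0511), that of Mpzl3 with any heart but old 1 left out (up to 0.181), and that of Jaml in no such setting. The summed level of 12 leukocyte markers was higher in every old heart as well (429 to 644 CPM against 300.1 to 364 CPM), and 4 of the 11 tested were higher. Whether leukocyte content bears on the levels of these neighbours was not tested.

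Scn7a had the most reads of the 6 genes in every heart, and it did not pass the test. It stood at 30.2, 37.2 and 35.6 CPM in young 1, 2 and 3 and at 50.2, 37.8 and 60.5 CPM in old 1, 2 and 3. All old hearts lay above all young hearts, but old 2 exceeded the highest young heart by less than the counting error of either. The means were 34.3 ± 3.67 CPM in young and 49.5 ± 11.4 CPM in old hearts. The log2 fold change was 0.53 ± 0.18 (edgeR adjusted p = 0.0759), with a 95% interval from 0.13 to 0.93. The adjusted p was 0.0261 without old 2 and 0.0451 without old 1, and it was 0.04 with no filter on low counts. The gene (ENSMUSG00000034810) lies on the minus strand of chromosome 2, 66673425 to 66784914.

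Transcripts of peripheral glia were read beside Scn7a, because its protein is known from Schwann cells. Of 16 markers of Schwann cells and other glia 11 could be tested, of which 1 was higher (L1cam, 1.20 ± 0.28) and 1 lower (Cadm4, −0.77 ± 0.16), with a median log2 fold change of 0.19. Both calls ended without young 1, 2 or 3 or old 3 (up to an edgeR adjusted p of 0.101 for L1cam and 0.0751 for Cadm4). The summed level of all 16 was 78.3 to 96.6 CPM in young and 68.6 to 117 CPM in old hearts. In the old hearts, old 2 was lowest and old 3 highest both in this sum and in Scn7a, with old 1 (99.0 CPM in the sum) between them. The sum of smooth muscle and pericyte markers had the same order (834, 1077 and 1269 CPM in old 2, old 1 and old 3). In the young hearts the orders differed, with Scn7a highest in young 2 and the glial sum highest in young 3. Of 14 fibroblast markers none was higher and 2, Col1a1 and Col3a1, were lower, and the sum of the list overlapped between the ages (2554 to 3547 CPM in young and 1922 to 3515 CPM in old hearts). The call of Col1a1 ended without young 2, young 3 or old 3, and that of Col3a1 without these or old 2 (edgeR adjusted p up to 0.0603 and 0.11). The part of either cell type in the level of Scn7a was not tested. In bulk tissue, fewer or more cells of a type and a change in RNA per cell cannot be told apart.

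Scn4a, the skeletal muscle alpha subunit, was detected in every heart and overlapped between the ages. It stood at 13.6, 12.3 and 13.8 CPM in young 1, 2 and 3 and at 18.4, 16.5 and 13.3 CPM in old 1, 2 and 3. The young hearts lay close together, and the old hearts ranged from within the young values to above them. The log2 fold change was 0.28 ± 0.16 (edgeR adjusted p = 0.273), with a 95% interval from −0.09 to 0.65. The gene (ENSMUSG00000001027) lies on the minus strand of chromosome 11, 106318592 to 106353288.

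Beside the reads of Scn4a, fast myosin heavy chain genes of skeletal muscle had almost none. Of 16 skeletal muscle markers, the fast myosin heavy chain genes Myh2 and Myh4 had no read in any heart and Myh1 had reads in old 1 alone, at 0.0613 CPM. Other markers of the list were detected at low levels in young and old hearts, such as Mylpf (0.903 and 2.21 CPM), Tnni2 (2.03 and 2.09 CPM) and Tnnt3 (1.33 and 1.54 CPM). The muscle determination gene Myod1 was at 0 in 5 of 6 hearts. Among 8 markers that could be tested 2 were higher, Ryr1, the calcium release channel of skeletal muscle (2.30 ± 0.42), and Cacna1s, its voltage sensor (1.27 ± 0.28), with a median of 0.74. The call of Ryr1 ended without young 2 (edgeR adjusted p = 0.0591), and that of Cacna1s without young 1, 2 or 3 (up to 0.0777). The summed level of all 16 was 38.2 to 46.8 CPM in young and 37.8 to 68.3 CPM in old hearts. Most of it came from Mybpc2, a myosin-binding protein, at 31.5 CPM over all hearts. Old 1, the highest in this sum, was also the highest in Scn4a. The same heart was highest in the atrial, conduction system and leukocyte marker sums too (431, 230 and 644 CPM). The called markers Ryr1 and Cacna1s were highest in old 2 (1.84 and 10.4 CPM). The part of skeletal muscle in the level of Scn4a was not tested.

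Scn10a, the alpha subunit of sensory neurons, was near the counting limit in every heart. It had 10, 13 and 15 reads in young 1, 2 and 3 and 11, 18 and 13 reads in old 1, 2 and 3. In CPM this was 0.845 ± 0.143 in young and 0.972 ± 0.301 in old hearts, with overlapping groups. The log2 fold change was 0.19 ± 0.41 (edgeR adjusted p = 0.781), with a 95% interval from −0.72 to 1.10. That interval runs from 0.605-fold to 2.15-fold. With so few reads and 3 hearts per age, neither a change nor its absence can be read from it. Of 20 neuronal markers 4 were at 0 in all hearts (Chrna3, Chat, Slc18a3 and Syt1), and 6 could be tested, of which Uchl1 was higher and Hand2 lower. Both calls ended without young 1, 2 or 3 or old 3 (up to an edgeR adjusted p of 0.125 for Uchl1 and 0.104 for Hand2). The sum of all 20 was 63.6 to 74.4 CPM in young and 62.0 to 73.8 CPM in old hearts, and its largest part came from Hand2, a transcription factor that the developing heart also uses. The gene (ENSMUSG00000034533) lies on the minus strand of chromosome 9, 119608456 to 119719322.

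Levels of different genes were compared per length, as CPM per kilobase of annotated exon, because longer transcripts give more reads. In young hearts the order was Scn7a (4.68 ± 0.50), Scn4b (2.36 ± 0.48), Scn4a (1.88 ± 0.11), Scn2b (0.19 ± 0.088), Scn3b (0.177 ± 0.0624) and Scn10a (0.106 ± 0.0179). Scn7a stood clear of Scn4b, with no overlap. Scn4b and Scn4a overlapped, as did Scn2b and Scn3b, while Scn10a overlapped with Scn3b at the lower end of the latter's range. In old hearts the order of the upper 3 was the same, with 6.75 ± 1.55 for Scn7a, 4.88 ± 0.89 for Scn4b and 2.28 ± 0.37 for Scn4a. There Scn4b (4.17 to 5.88) stood clear of Scn4a (1.89 to 2.61) and overlapped with Scn7a (5.15 to 8.24). In old 2, Scn4b (5.88) was above Scn7a (5.15). The lower 3 lay between 0.0846 and 0.177 in all old hearts and could not be ranked. In the authors' FPKM values, Scn4b had 2.28 ± 0.46 in young and 4.71 ± 0.89 in old hearts. Scn7a had 4.49 ± 0.47 and 6.45 ± 1.46 FPKM, and Scn4a 1.80 ± 0.10 and 2.18 ± 0.34 FPKM.

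**Figure D2:**
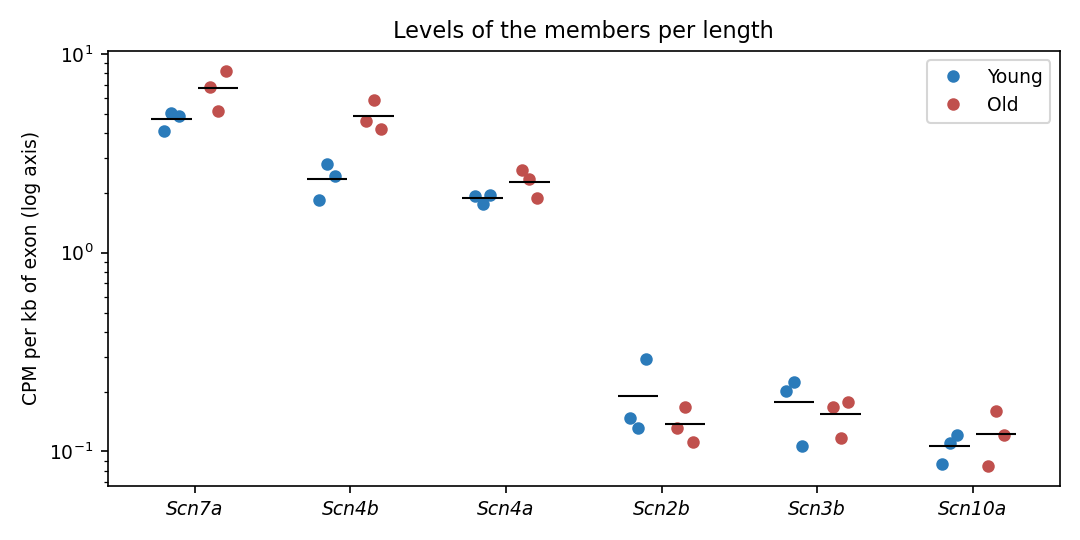
Level of each member per length, as TMM-scaled CPM per kilobase of exon on a log axis. Points are hearts (blue young, red old) and black lines are means of 3 hearts. Scn7a, Scn4b and Scn4a lie at 1.75 or more and Scn2b, Scn3b and Scn10a at 0.29 or less in every heart, and Scn4b lies next to Scn4a in young and next to Scn7a in old hearts.

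Of the reads of all 6 members, counted per length, Scn4b took 24.9% ± 2.75 in young and 34.3% ± 7.40 in old hearts. Its share was 22.2, 27.7 and 24.9% in young 1, 2 and 3 and 31.8, 42.6 and 28.4% in old 1, 2 and 3. The groups did not overlap, but old 3 exceeded young 2 by little. The share of Scn7a was 49.8% ± 0.46 in young hearts, nearly the same in all 3, and spread from 37.3 to 56.0% in old hearts. The alpha subunit gene Scn4a took 20.2% ± 2.91 in young and 15.9% ± 2.76 in old hearts.

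Pairs of members with at least 10 reads in every heart were Scn4a, Scn7a, Scn10a and Scn4b, which gave 6 read ratios. The ratio of Scn4a to Scn4b was lower in old hearts by a log2 difference of −0.79, going from 0.19 ± 0.37 to −0.60 ± 0.26 on the log2 scale. The ratio of Scn10a to Scn4b went from −3.74 ± 0.17 to −4.63 ± 0.35. Both pairs were without overlap (two-sided exact permutation p = 0.1 each, the lowest possible, and 0.3 adjusted over 6 pairs). The ratio of Scn7a to Scn4b overlapped between the ages (1.56 ± 0.15 in young and 1.01 ± 0.59 in old hearts, exact permutation p = 0.2, adjusted 0.4). The other 3 pairs, all among the alpha subunit genes, overlapped too (exact permutation p = 0.4 to 1). No pair passed after adjustment, which this number of hearts does not allow.

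**Figure D3:**
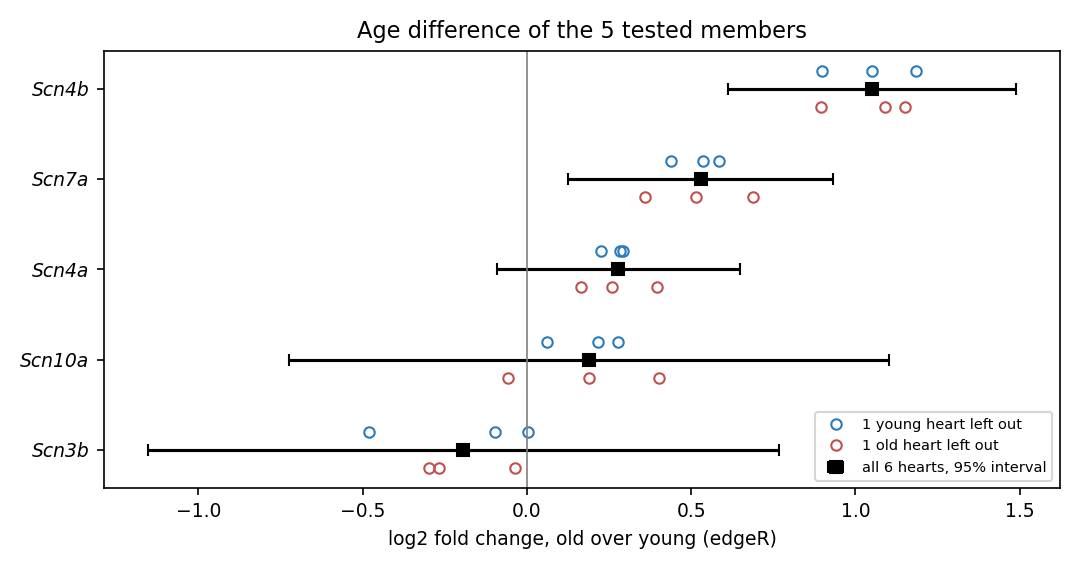
Log2 fold change of old over young hearts for the 5 tested members (edgeR). Squares with bars are the values and 95% intervals from all 6 hearts, and open circles are values with 1 heart left out. Scn4b lies between 0.89 and 1.18 with any heart left out, and the intervals of Scn4a, Scn10a and Scn3b span 0.

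Scn4b is known to be abundant in the ventricular conduction system, so markers of that system and of atrial tissue were read beside it. Of 16 conduction system markers 13 could be tested, of which 1 was lower (Irx3) and none higher. Their median log2 fold change was 0.32, with 9 of 13 above 0. The sum of all 16 was 168 to 224 CPM in young and 186 to 230 CPM in old hearts, with overlap. The most abundant were Smoc2, at 65.6 CPM in young and 60.6 CPM in old hearts, and Gjc1, a connexin of the nodes, at 27.1 and 32.8 CPM.

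Of 10 atrial markers 8 could be tested and 1, Stard10, was higher (1.20 ± 0.18). The median log2 fold change of the 8 was 1.17, with 5 of 8 above 0. Stard10 stood at 20.6 to 21.4 CPM in young and 38.7 to 62.7 CPM in old hearts. Nppa, the atrial natriuretic peptide gene and the most abundant of the list, stood at 44.9, 67.1 and 112 CPM in young and 145, 13.5 and 57.1 CPM in old hearts. The atrial sum was 126 to 204 CPM in young hearts, 431 CPM in old 1, 129 CPM in old 2 and 163 CPM in old 3. Without old 1 the log2 fold change of Scn4b was 1.09 (edgeR adjusted p = 0.00216). The part of conduction system or atrial tissue in the level of Scn4b was not tested.

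Markers of other cell types differed between the ages as well. Of 12 cardiomyocyte markers 4 were lower and 1 was higher, and their sum was lower in every old heart (65172 to 73320 CPM against 77621 to 86466 CPM). The largest part of this sum was Myh6, which fell from 22616 to 13464 CPM, and Actc1 fell from 5481 to 2330 CPM. Myl2 rose from 7800 to 11666 CPM, and 5 of the 12 markers had a log2 fold change above 0. Of 12 endothelial markers 3 were lower, and their sum was also lower in every old heart (3210 to 3457 CPM against 3514 to 4039 CPM). Of 10 markers of smooth muscle cells and pericytes 2 were lower, and the sum overlapped between the ages (834 to 1269 CPM in old against 1189 to 1437 CPM in young hearts). The part of these cell types in the result for Scn4b was not tested.

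**Figure D4:**
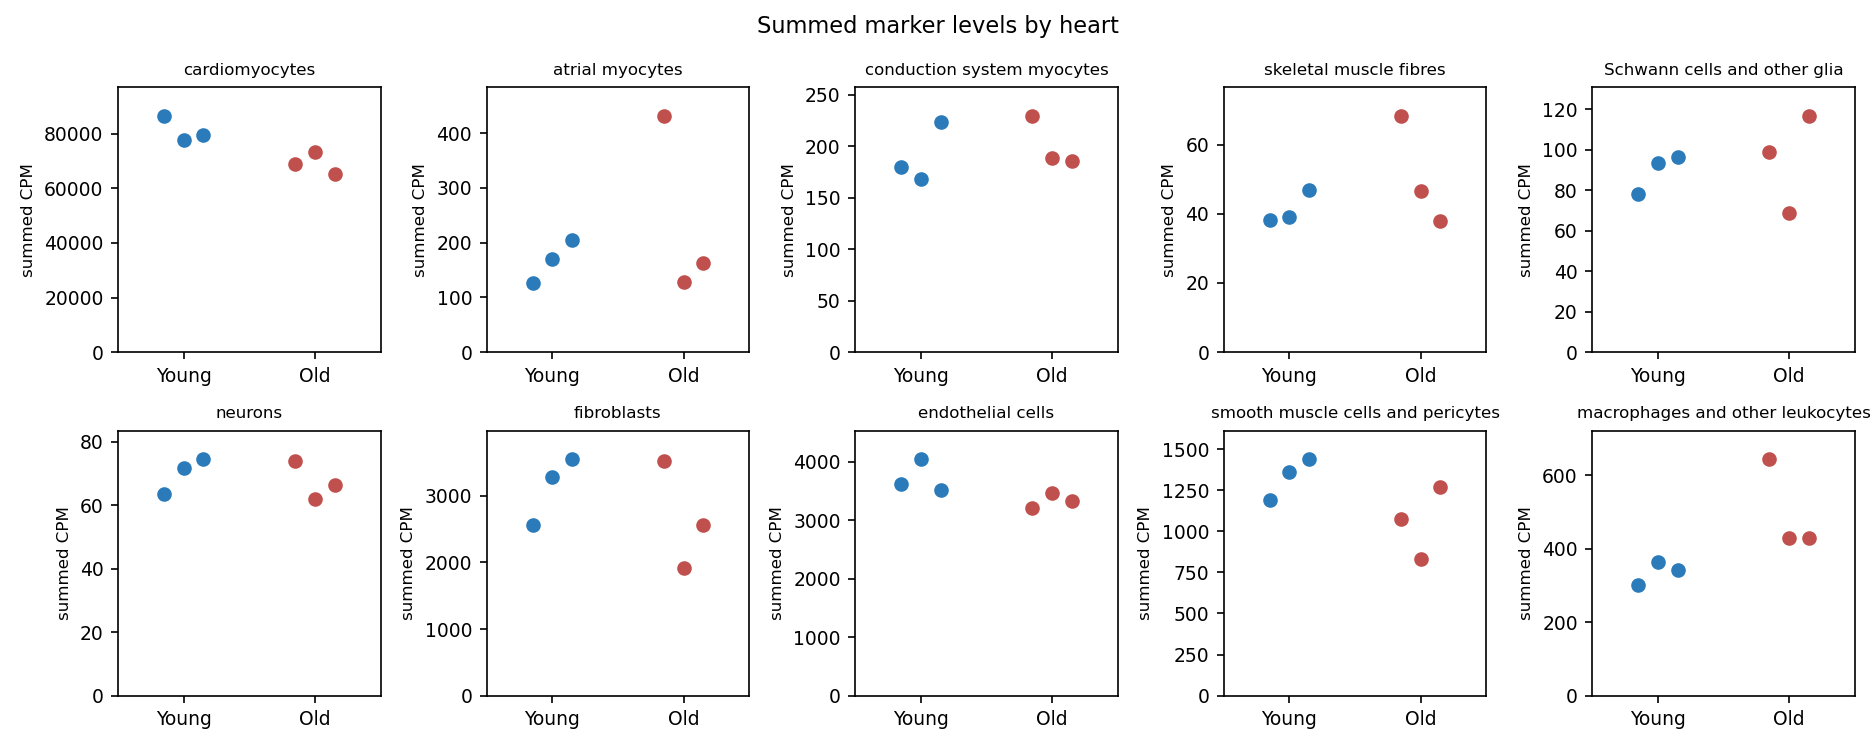
Summed CPM of marker lists in each heart (blue young, red old), on axes that start at 0. The sums of cardiomyocyte and endothelial markers are lower and that of leukocyte markers is higher in all old hearts. The atrial sum stands out in old 1 (431 CPM). The sums of the conduction, skeletal muscle, glial, neuronal, fibroblast and smooth muscle lists overlap between the ages.

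Among genes that bind, anchor, move or modify sodium channels, those that passed the test described above were lower, and most did not pass. Of 31 channel partners 29 could be tested, of which 6 (20.7%) were lower and none higher, with a median log2 fold change of −0.20 beside 0.02 for all genes tested. By the same test 6.36% of all genes were lower. Prkaca, the catalytic subunit of protein kinase A, which phosphorylates the channel, stood at 159, 142 and 147 CPM in young and 84, 89.7 and 74.2 CPM in old hearts (log2 fold change −0.85 ± 0.13, edgeR adjusted p = 0.00482). Gpd1l, whose product affects the surface level of the cardiac channel, stood at 53.5, 41.2 and 43.7 CPM in young and 28.2, 26.8 and 26.9 CPM in old hearts (−0.76 ± 0.14, edgeR adjusted p = 0.00901). For both genes every old heart lay below every young heart, which held for 18.4% of all genes tested.

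Gja1, the main ventricular connexin, which clusters with sodium channels at the intercalated disc, fell as well (−0.81 ± 0.15, edgeR adjusted p = 0.0103). Fgf13, a fibroblast growth factor homologous factor that binds the tail of the alpha subunit, fell from 24.0 to 28.7 CPM in young hearts to 16.6 to 17.7 CPM in old hearts (−0.57 ± 0.14, edgeR adjusted p = 0.0242). The other lower partners were Sntb1, a syntrophin, and Nedd4, a ubiquitin ligase. The anchoring genes Ank2 and Ank3 and the kinase gene Camk2d did not pass, with log2 fold changes of −0.27 ± 0.16, −0.04 ± 0.13 and 0.01 ± 0.12. Of the 29 tested partners, 10 had a log2 fold change above 0, none of them past the threshold. The smallest p among them belonged to Dlg1 (0.34 ± 0.12, edgeR adjusted p = 0.0801) and Dsg2 (0.66 ± 0.24, edgeR adjusted p = 0.0882). Cdh2 (0.38 ± 0.14, edgeR adjusted p = 0.104) and Pkp2 (0.46 ± 0.18, edgeR adjusted p = 0.113) came next. The count of lower partners was 1 without young 1, 3 without young 2, young 3 or old 3, and 8 without old 1, where 6 partners were higher. Prkaca kept its call with any heart left out, Gpd1l and Gja1 lost it without young 1 alone (edgeR adjusted p = 0.054 and 0.0613), and Fgf13 lost it without young 1, 2 or 3 or old 3 (up to 0.118). Sntb1 and Nedd4 kept theirs without old 1 alone.

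Of 10 genes for the secretases that cut beta subunits, 1 (10%) was lower and none higher, with a median log2 fold change of −0.22. The shares over all genes tested were 6.36% lower and 15.1% in either direction. Bace2, a relative of the beta-secretase gene Bace1, stood at 6.67, 6.24 and 8.11 CPM in young and 4.29, 3.12 and 3.93 CPM in old hearts (−0.89 ± 0.22, edgeR adjusted p = 0.0272). The call ended without young 1, 2 or 3 or old 2 or 3, with an edgeR adjusted p of up to 0.122. Bace1 itself, whose enzyme is known to cut beta subunits, had −0.22 ± 0.12 (edgeR adjusted p = 0.243). Adam10, a surface protease, had −0.48 ± 0.15 (edgeR adjusted p = 0.0582).

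Of 26 transcription factors of the conduction system and of excitability 24 could be tested, and 3 were lower and none higher, with a median of −0.32. Nkx2-5, a cardiac homeobox factor, stood at 76.6, 70.7 and 64.6 CPM in young and 35.6, 51.2 and 35.8 CPM in old hearts (−0.79 ± 0.17, edgeR adjusted p = 0.0154). Mef2c, a muscle transcription factor, had −0.58 ± 0.14 (edgeR adjusted p = 0.026), and Irx3, which patterns fast conduction in the Purkinje network, −0.54 ± 0.14 (edgeR adjusted p = 0.0281). The count of lower factors was 0 without young 1, young 2 or old 3, 1 without young 3 or old 2, and 11 without old 1. Nkx2-5 lost its call without young 1, young 2 or old 3 (up to an edgeR adjusted p of 0.0781), and Mef2c and Irx3 kept theirs without old 1 alone (up to 0.12 and 0.131 otherwise). Irx3 stands in this list and among the conduction markers. The cardiomyocyte and endothelial marker sums were lower in the old hearts beside these lists, and their part in them was not tested.

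**Figure D5:**
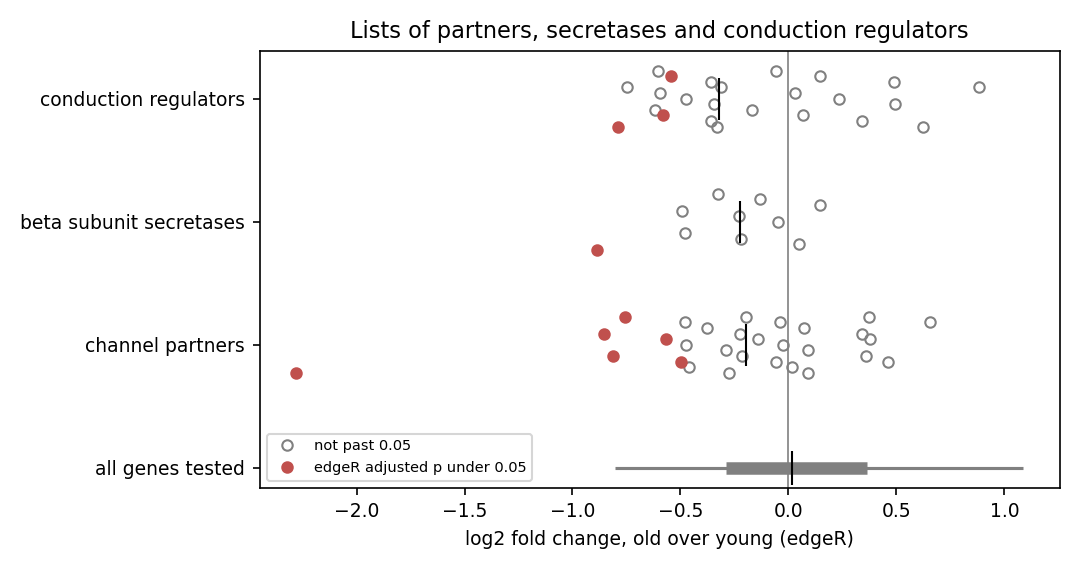
Log2 fold change of old over young hearts (edgeR) for the genes of 3 lists and for all genes tested. Circles are genes (filled: adjusted p under 0.05), black ticks are medians, and the grey bar and line give the 25th to 75th (−0.29 to 0.36) and 5th to 95th percentile (−0.80 to 1.09) of all genes. All filled circles lie below 0.

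The genes whose pattern over the 6 hearts was most like that of each member were sought among 8514 protein-coding genes of at least 10 CPM, by the root mean square difference of log2 CPM after centring each gene. For Scn4b they were Syt11, a synaptotagmin (difference 0.12), and Htatip2 (0.13), where the median gene differed by 0.61. Both rose, Syt11 from 12.3 to 22.2 CPM (0.85 ± 0.19, edgeR adjusted p = 0.0208) and Htatip2 from 21.0 to 43.5 CPM (1.05 ± 0.14, edgeR adjusted p = 0.00327). A rise was set by choosing genes alike to Scn4b in these same hearts, so these tests are not separate evidence. The call of Syt11 ended without young 1, young 3, old 2 or old 3 (up to an edgeR adjusted p of 0.0967). For Scn7a they were Dapk1, a death-associated kinase (0.05), and Axl, a receptor kinase (0.09). For Scn4a they were Kiz (0.04) and Trdn (0.05), the junctional protein triadin of the sarcoplasmic reticulum. With 6 points per gene and 8514 candidates, such closeness is a description only.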

How the data were processed

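Tissue RNA of 3 young and 3 old hearts was analysed, although the labels' extraction text names NRVMs. HISAT2, featureCounts, Subread and the build GRCm38.p6 are named in the submitters' processing notes, and the authors deposited raw counts per gene. Tool versions, the gene annotation and how stranded or multiply mapping reads were counted are not stated there. The deposited FPKM values cover 13170 genes, all with at least 1 FPKM in some library, among them Scn4a, Scn7a and Scn4b.

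Counts of 43629 named models were tested in R 4.3.3 with edgeR 4.0.16 (filterByExpr, TMM, quasi-likelihood, Benjamini-Hochberg at 0.05); 571 unnamed models held 0.295 to 0.368% of counts and were left out. The SE is the log2 fold change divided by the root of F. Exon lengths and coordinates came from GENCODE M21, start windows from RefSeq (5 of 6 members matched). Alternatives were scaling by RLE or upper-quartile factors, no filter or 1 CPM in 3 libraries, DESeq2 1.42.0, limma 3.58.1 (voom, and log2 FPKM with 1 or 0.1 added), a replicate block, and leaving out any 1 heart. Methods were tested on simulated data. Members and lists were chosen with earlier results of these data known. Named genes are all members, up to 4 called genes of each partner list by smallest p (or the 2 smallest p), the highest and called markers, and the 2 most alike genes of each member above 1 CPM; others were named after their values were seen. The results of all marker lists are in the report except adipocytes (1 of 7 tested, not called).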

Additional observations from a re-analysis of the deposited data

How the results depend on the processing

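Scn4b kept its direction throughout, and its call in the 9 alternatives with all hearts and in 5 of 6 settings with 1 heart left out (0.90, edgeR adjusted p = 0.0527 without young 1). Scn4a, Scn10a and Scn3b passed in none of the settings where they were tested. For each result the range over the 6 settings that left out 1 heart follows. The log2 fold change was 0.89 to 1.18 for Scn4b, 0.36 to 0.69 for Scn7a, 0.17 to 0.39 for Scn4a, −0.058 to 0.40 for Scn10a (below 0 without old 2) and −0.48 to 0.0035 for Scn3b (above 0 without young 2). Scn7a also passed with no filter on low counts (0.52, edgeR adjusted p = 0.04). The count of genes past the threshold was 539 (without young 1) to 5570 (without old 1) of those tested, against 2174. Channel partners were higher in 0 to 6 and lower in 1 to 8, secretases lower in 0 to 4, and conduction regulators higher in 0 to 2 and lower in 0 to 11. With no filter and with DESeq2 alike, 1 partner and 1 regulator were higher and 2 secretases lower; regulators lower were 7 and 6. Upper-quartile factors gave 2 secretases lower. The log2 ratio of Scn4a over Scn7a changed by −0.45 to 0.044 (above 0 without old 3), Scn4a over Scn10a by −0.24 to 0.29 (below 0 without old 1) and Scn2b over Scn3b by −0.64 to 0.43 (above 0 without young 3 or old 3). Fewer hearts enter each left-out setting, and the cause of these shifts was not tested.

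Replicate numbers are shared by the ages, but the labels do not say that they pair animals, and deviations of same-numbered hearts correlated at −0.08, −0.07 and 0.02. With the replicate block 1774 genes passed, Scn4b had 1.05 (edgeR adjusted p = 0.00748) and no member changed its call, while Nedd4 (0.0681), Irx3 (0.0504), Uchl1 (0.0515) and Mpzl3 (0.0812) lost theirs. L1cam, Cacna1s and Col3a1 did not pass with limma on log2 FPKM, nor did Mpzl3 with RLE factors, upper-quartile factors or voom. Depth limits Scn2b, Scn3b and Scn10a, which had 7 to 21 reads per heart.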
